A study of Bos taurus with 10 samples.

Results

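The 50 most abundant nuclear transcripts of the liver were followed across 10 libraries from cows of the Holstein dairy breed (Bos taurus). Members were chosen by their measured level: counts per 1000000 counts of the library (CPM) were averaged over all 10 libraries, and the Ensembl gene IDs were ranked by that mean. The rule left out 40 IDs that it names as mitochondrial, 37 of which had any count, and 1 further ID, ENSBTAG00000006354. The members are the 50 highest of the remaining 27566 IDs, in a table of 27607. All 10 libraries are liver sampled 2 weeks before the calving date expected, 5 labelled over-conditioned, that is with excess body fat, and 5 labelled normal-conditioned. Age and parity are not given in the sources used here, nor is it said whether each library is a separate cow. The p-values therefore measure the spread between these samples, which may be technical.

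The liver makes most of the proteins of blood plasma, and a small number of secretory transcripts is known to fill a large part of hepatocyte messenger RNA. Albumin, encoded by ALB, is the main plasma protein. It holds water in the circulation and carries fatty acids, hormones, bilirubin and drugs. In dairy cows the last weeks of pregnancy are known for the mobilisation of body fat, and fatty acids then reach the liver bound to albumin.

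The rule itself names ENSBTAG00000017121 as ALB, and the count table does not pair IDs with symbols. None of the IDs could be matched to the gene table used here (0 of 27607), so the other 49 members are given by rank and ID, without a function. For the same reason the labelled tissue could be set against no marker other than ALB. Since the libraries were made from the 3′ ends of transcripts, a transcript's count depends little on its length, and CPM values are set side by side between IDs without a length correction. Counts are of reads, and no molecular identifiers are described, so copies made in amplification may be among them. Membership was set by the mean level, so levels are a description; the comparison of conditions was not used to choose the members.

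The libraries held from 3892292 to 6737548 counts. Over-conditioned replicate 2 was the shallowest and stood apart, with a mean rank correlation to the other libraries of 0.936 against 0.950 to 0.957 in the other 9. Among the members it gave the highest of the 10 values in 7 and the lowest in 3. Every member was counted at least 1737 times in every library, so counting alone gave a coefficient of variation (CV, SD over mean) of at most 2.40%. None of the members had the same counts as another ID in all libraries (0 of 50).

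The members together held 29.8% ± 1.69 (SD, n = 10) of all counts. In over-conditioned replicates 1 to 5 their share was 27.1%, 28.7%, 29.9%, 28.5% and 29.1%. In normal-conditioned replicates 1 to 5 it was 32.1%, 32.2%, 28.6%, 30.2% and 31.3%. The means were 28.7% ± 1.04 and 30.9% ± 1.505 (SD, n = 5 each), and the groups overlapped. ALB alone supplied 8.56% of counts on average, the first 5 members 14.6%, the first 10 members 18.0% and the first 30 members 25.3%. The other 49 members held 21.2% ± 0.638 in the over-conditioned group and 21.2% ± 0.680 in the normal-conditioned group (SD, n = 5 each). The difference between the groups in the members' total, −2.22 percentage points, stood beside one of −2.21 percentage points for ALB. On totals without the mitochondrial IDs and the removed ID, the members together held 36.6% ± 1.62 (over-conditioned) and 38.3% ± 1.17 (normal-conditioned). The difference was −1.62 percentage points. There the other 49 members held 27.1% ± 1.47 in the over-conditioned and 26.3% ± 0.827 in the normal-conditioned group (SD, n = 5 each).

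**Figure D1:**
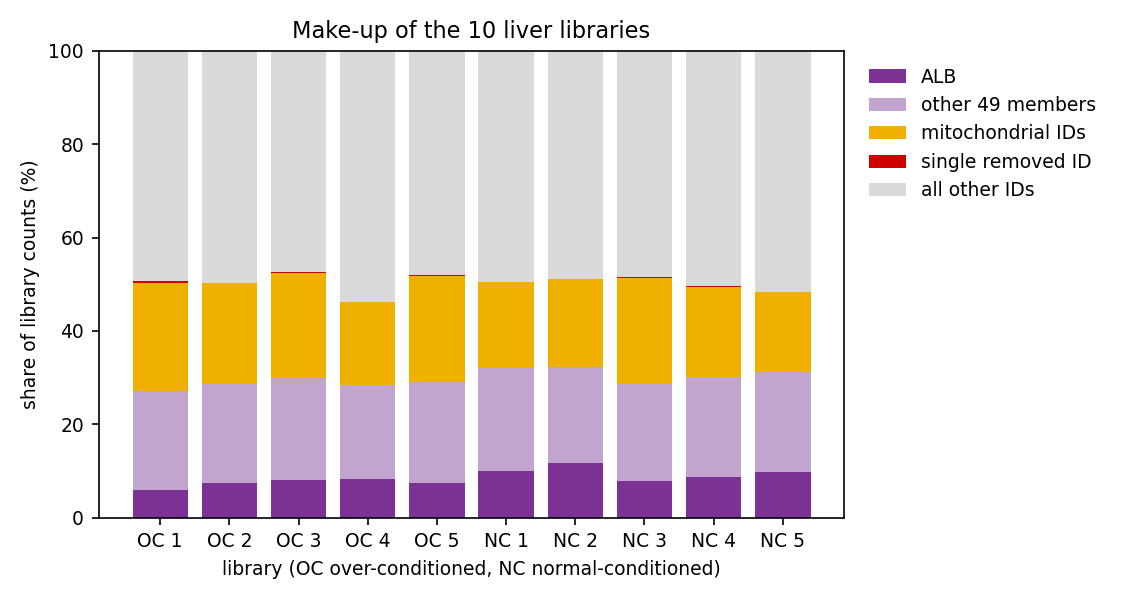
Share of each library's counts, in percent, held by ALB, the other 49 members, the mitochondrial IDs, the single removed ID and all other IDs, 1 bar per library (OC over-conditioned, NC normal-conditioned). The other 49 members fill between 20.2% and 22.1% of every library, while ALB runs from 6.05% to 11.8%.

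ALB was the most abundant member in all 10 libraries. Its share was 6.05%, 7.38%, 8.03%, 8.29% and 7.54% of counts in over-conditioned replicates 1 to 5. It was 9.92%, 11.8%, 7.88%, 8.80% and 9.89% in normal-conditioned replicates 1 to 5. The lowest normal-conditioned library, replicate 3, lay below over-conditioned replicates 3 and 4, and the other 4 normal-conditioned libraries lay above all over-conditioned ones. The means were 7.46% ± 0.869 and 9.67% ± 1.48 (SD, n = 5 each; exact permutation test over 252 regroupings, two-sided, p = 0.0238, with this difference known from earlier work on these data). Across all IDs, edgeR's quasi-likelihood test gave ALB a log2 fold, over-conditioned over normal-conditioned, of −0.43 (SE 0.16) with an adjusted p of 0.617, which did not pass the threshold of 0.05. Fewer hepatocytes in a sample and less ALB RNA per cell cannot be told apart in bulk liver.

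The mitochondrial IDs are part of the same total and differed the other way. Their share was 21.5% ± 2.17 among over-conditioned against 19.2% ± 2.17 among normal-conditioned libraries (SD, n = 5 each), with groups that overlapped. Their part in the ALB difference was not tested. Without them and the removed ID, ALB held 9.51% ± 0.959 and 11.96% ± 1.66 (exact permutation p = 0.0159, two-sided). Per 100 counts outside the members, the mitochondrial IDs and the removed ID there were 15.04 ± 1.72 counts of ALB among over-conditioned against 19.4 ± 3.05 among normal-conditioned libraries (exact permutation p = 0.0159, two-sided).

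The library names carry a digit whose meaning the labels do not give, 7 in all over-conditioned and 3 normal-conditioned libraries and 8 in the remaining 2. Among the libraries with 7 the ALB difference was −2.43 percentage points (exact permutation p = 0.107, two-sided, over 56 regroupings of 5 and 3 libraries). No over-conditioned library carries 8, so no value can be had within that digit. The names also open with a running number, whose meaning the labels do not give either. Over-conditioned libraries hold the lower numbers, except that a normal-conditioned library comes just before the last of them. Condition and this order can therefore hardly be told apart, also among the libraries with 7.

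The gap between ALB and the next member was wide. ENSBTAG00000022120, ranked second, stood at 20367, 16750, 20790, 17226 and 24691 CPM in over-conditioned replicates 1 to 5. Its normal-conditioned values were 18569, 16304, 19807, 17810 and 20251 CPM. The groups overlapped in part. The over-conditioned values of 20367, 20790 and 24691 CPM lay above the whole normal-conditioned group, and the normal-conditioned value of 16304 CPM lay below all over-conditioned ones. ALB exceeded this member 2.97-fold in over-conditioned replicate 1 and 7.27-fold in normal-conditioned replicate 2, the extremes of the 10 libraries. The ratio averaged 3.82 ± 0.813 among over-conditioned against 5.28 ± 1.22 among normal-conditioned libraries (SD, n = 5 each).

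Ranks 3 to 5 completed the members with at least 1% of counts on average, 5 in all. ENSBTAG00000007273 stood at 17189, 24742, 22509, 15507 and 20555 CPM in over-conditioned and at 17648, 18975, 14169, 18146 and 13180 CPM in normal-conditioned replicates 1 to 5. ENSBTAG00000006745 stood at 14837, 11143, 14161, 11201 and 15965 CPM and at 10841, 10418, 12680, 13228 and 9836 CPM in the same order. Both had their highest value in an over-conditioned library and their lowest in normal-conditioned replicate 5, and in both the groups overlapped. Their log2 folds in edgeR were 0.25 (SE 0.19) and 0.20 (SE 0.17), with adjusted p of 0.782 and 0.804.

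ENSBTAG00000017280, rank 5, was the only member above 0 at an unadjusted p under 0.05 in edgeR. It stood at 13930, 11392, 10719, 11204 and 9714 CPM in over-conditioned replicates 1 to 5. In normal-conditioned replicates 1 to 5 it stood at 9799, 8931, 8000, 9504 and 7790 CPM. Over-conditioned replicate 5 fell just below the highest normal-conditioned library, and the other 4 over-conditioned libraries lay above the whole normal-conditioned group. The log2 fold was 0.31 (SE 0.14) with an edgeR adjusted p of 0.652.

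Ranks 6 to 10 each held between 0.537% and 0.932% of counts on average, and in 3 of them a single library stood well above the rest. ENSBTAG00000000442, rank 6, stood at 16449 CPM in over-conditioned replicate 1, against 8290, 9210, 7080 and 7096 CPM in over-conditioned replicates 2 to 5. Its normal-conditioned values were 8829, 7902, 10006, 10561 and 7822 CPM. The other 9 libraries thus lay between 7080 and 10561 CPM. ENSBTAG00000000522, rank 7, stood at 5713, 8952, 10727, 9449 and 6029 CPM in over-conditioned and at 7101, 9454, 5538, 9187 and 17274 CPM in normal-conditioned replicates 1 to 5. Here the high library was normal-conditioned replicate 5.

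ENSBTAG00000017294, rank 9, had the second widest range of the members. It stood at 2958, 4779, 4606, 4077 and 3079 CPM in over-conditioned replicates 1 to 5. In normal-conditioned replicates 1 to 5 it stood at 15973, 4353, 8803, 4679 and 2166 CPM, so that the group held both the highest and the lowest of the 10 values. Its log2 fold in edgeR was −0.96 (SE 0.40, adjusted p = 0.639), and −0.42 without normal-conditioned replicate 1.

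Ranks 8 and 10 complete the first 10. ENSBTAG00000016151, rank 8, stood at 4280, 6601, 5479, 5299 and 4969 CPM in over-conditioned and at 5883, 6179, 5461, 5088 and 6593 CPM in normal-conditioned replicates 1 to 5. ENSBTAG00000009212, rank 10, stood at 5852, 8413, 6173, 3349 and 3954 CPM and at 4914, 4629, 4980, 6047 and 5386 CPM in the same order. Its CV was 36.1% among over-conditioned against 10.6% among normal-conditioned libraries. The over-conditioned group held both its highest and its lowest value.

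**Figure D2:**
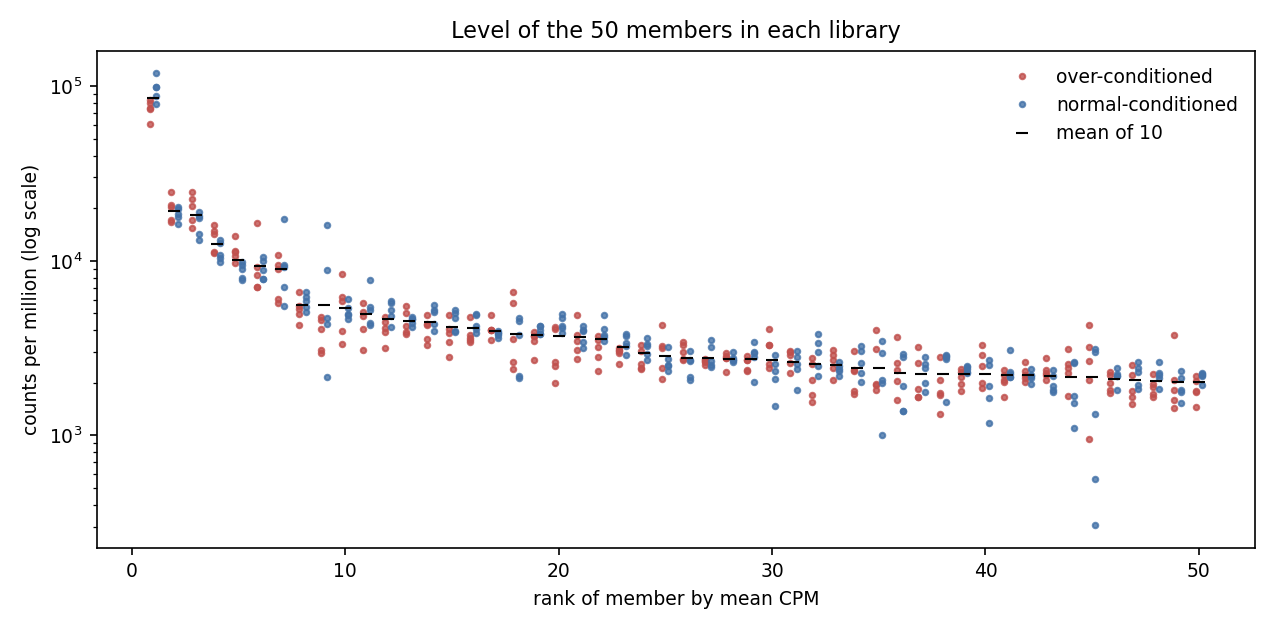
Level of each of the 50 members in CPM, on a log scale, against its rank by mean CPM; points are libraries, coloured by condition, and the dash is the mean of 10. ALB stands alone above the others at 60470 to 118453 CPM, and from rank 8 on the means fall gradually from 5583 to 2017 CPM.

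Ranks 11 to 30 held 7.21% ± 0.448 of counts (SD, n = 10) and ranks 31 to 50 held 4.51% ± 0.230. No break in level marks the end of the list. Members 46 to 50 averaged 2098, 2082, 2061, 2031 and 2017 CPM, and the IDs ranked 51 to 55 averaged 1994, 1946, 1848, 1846 and 1842 CPM.

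Ranking each library on its own, 30 of the 50 members were among that library's first 50 in all 10 libraries, and 46 were among its first 100 in all 10. A single library's own first 50 held 41 to 47 members, the fewest in normal-conditioned replicate 5 and the most in normal-conditioned replicate 4. In all, 76 IDs were among the first 50 of at least 1 library, of which 26 are no members. Of the first 10 members, 7 stayed among the first 10 of every library. Ranking by the over-conditioned mean alone kept 49 of the 50 members and ranking by the normal-conditioned mean alone kept 47.

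**Figure D3:**
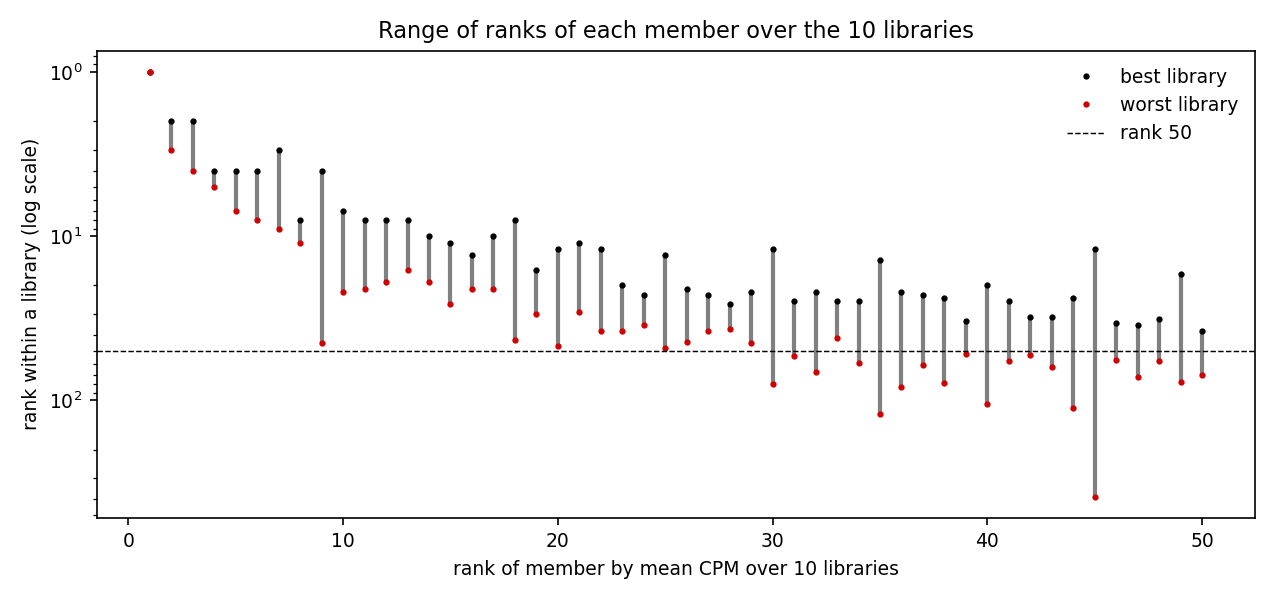
Best and worst rank of each member over the 10 libraries (log scale, rank 1 at the top) against its rank by mean CPM; the dashed line is rank 50. The first 8 members never fall below rank 11, and the widest bar belongs to the member of rank 45, which runs from rank 12 to rank 387.

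The members varied about as much between libraries as other abundant transcripts. The ratio of the highest to the lowest library had a median of 1.83 over the 50 members, against 1.75 over the 1019 tested IDs at 100 CPM or more and 2.19 over the tested IDs with a count in every library. It was under 1.5 in 10 members, over 2 in 18 and over 3 in 5. The CV within groups had a median of 15.3% over members and 17.2% over the IDs at 100 CPM or more. The CV was larger among over-conditioned than among normal-conditioned libraries in 32 of 50 members. The same share over all IDs tested is not given here, so this count is not read as a trait of the members.

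The 5 narrowest members ranged over 1.303-fold to 1.39-fold. ENSBTAG00000001271, rank 28, stood at 2785, 2948, 2765, 2305 and 2853 CPM in over-conditioned and at 2777, 2712, 2648, 3003 and 2701 CPM in normal-conditioned replicates 1 to 5. ENSBTAG00000002468, rank 42, stood at 2624, 2035, 2206, 2120 and 2350 CPM and at 2131, 2205, 2189, 2415 and 1979 CPM. For both, the group means lay closer together than the SD of either group, 2731 ± 248 and 2768 ± 139 CPM for the first and 2267 ± 231 and 2184 ± 157 CPM for the second (SD, n = 5 each).

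Of the other 3 narrow members, the last had group means farther apart than the SD of either group. ENSBTAG00000003229, rank 46, stood at 1753, 1825, 2000, 2322 and 2216 CPM in over-conditioned and at 2188, 2423, 2189, 1819 and 2246 CPM in normal-conditioned replicates 1 to 5. ENSBTAG00000016149, rank 17, stood at 4888, 4023, 3994, 3527 and 3991 CPM and at 3882, 3608, 3745, 3859 and 3952 CPM. ENSBTAG00000004362, rank 39, stood at 1786, 1966, 2390, 2158 and 2293 CPM and at 2294, 2475, 2387, 2291 and 2485 CPM. In the last, the means were 2119 ± 245 and 2386 ± 93.8 CPM (SD, n = 5 each), 4 of the 5 over-conditioned libraries lay below 4 of the 5 normal-conditioned ones, and the edgeR log2 fold was −0.22 (SE 0.14, adjusted p = 0.768).

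The widest range belonged to ENSBTAG00000022394, rank 45, at 14.0-fold. It stood at 4272, 949, 3225, 2084 and 2652 CPM in over-conditioned replicates 1 to 5. In normal-conditioned replicates 1 to 5 it stood at 1328, 560, 3132, 3003 and 306 CPM. High and low libraries occurred in both groups. The lowest value rested on 1737 counts, where counting alone gives a CV of 2.40%. The edgeR log2 fold was 0.62, with an approximate 95% interval of −0.52 to 1.75 and an adjusted p of 0.806. It ran from 0.34 without normal-conditioned replicate 5, through 0.40 without either over-conditioned replicate 1 or normal-conditioned replicate 2, to 1.00 without normal-conditioned replicate 3.

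ENSBTAG00000001595, rank 35, ranged over 3.98-fold, with 1969, 3144, 1830, 1939 and 4016 CPM in over-conditioned and 2089, 1010, 2004, 2966 and 3452 CPM in normal-conditioned replicates 1 to 5. ENSBTAG00000046540, rank 18, ranged over 3.09-fold, with 5712, 3565, 6585, 2415 and 2650 CPM and 2195, 2129, 3739, 4550 and 4709 CPM in the same order. In both members the group ranges overlapped over most of their length, and no library gave the highest or the lowest value in all 5 of the widest members.

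**Figure D4:**
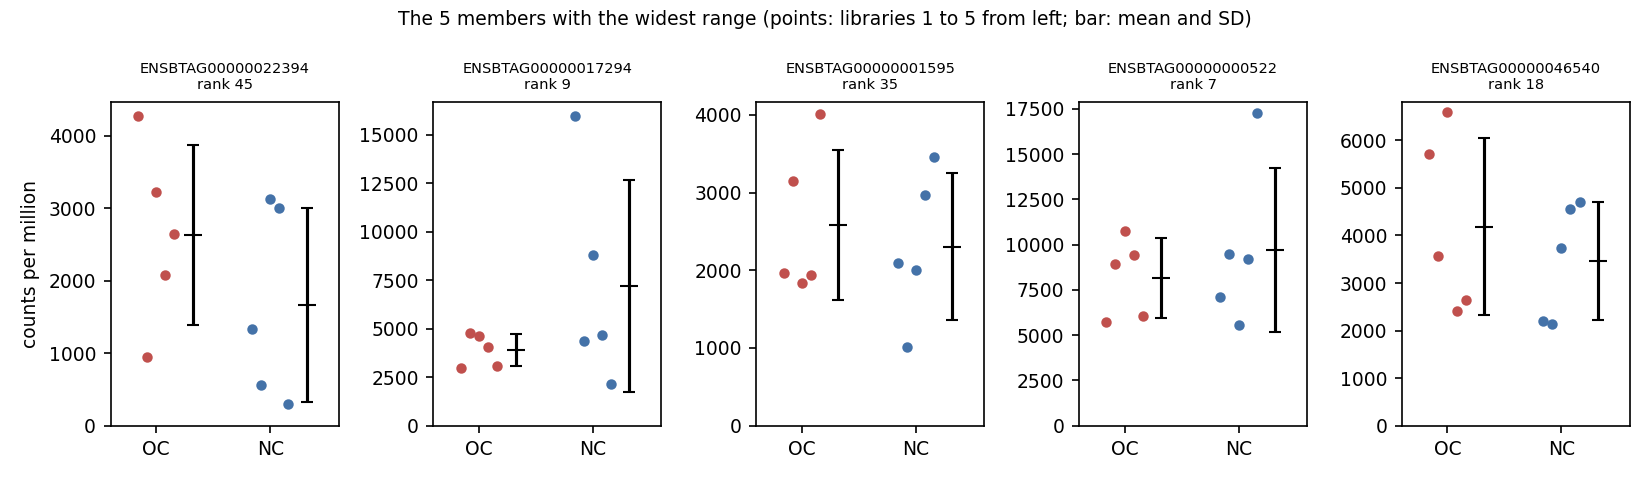
CPM of the 5 members with the widest ratio of highest to lowest library, by condition (OC over-conditioned, NC normal-conditioned); points are replicates 1 to 5 from left to right and the bar is the mean with its SD. ENSBTAG00000017294 reaches 15973 CPM in normal-conditioned replicate 1, and ENSBTAG00000022394 lies between 306 and 4272 CPM.

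The study asked what over-conditioning changes in liver gene expression at the end of pregnancy. No member passed: 0 of 50 had an adjusted p under 0.05 in edgeR, where 0 of all 9162 tested IDs passed (0%), and the smallest adjusted p among members was 0.529. DESeq2 likewise called 0 members, and 21 IDs in all (0.132%), and limma-voom called 0 of either. At an unadjusted p under 0.05 there were 9 members of 50 in edgeR, or 18.0%, against 7.55% of all IDs tested and 8.83% of those at 100 CPM or more. Of the 9, 8 were lower and 1 was higher in over-conditioned libraries. Over all IDs tested 3.39% were lower and 4.16% higher at that level. Among the 1019 tested IDs at 100 CPM or more, 76 were lower and 14 higher, so that most were lower there too. With plain library totals in place of TMM scaling the members split into 6 lower and 2 higher.

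That count moved with single libraries. It was 5 without over-conditioned replicate 1 or 3 or normal-conditioned replicate 1 or 3, and 3 without normal-conditioned replicate 2. Without over-conditioned replicate 2, the library that stood apart, 6 members had an unadjusted p under 0.05, all lower.

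Over the 50 members the median log2 fold was −0.15 and 29 folds were below 0, or 58.0%. Over all IDs tested the median was 0.01 and 48.3% were below 0, and over the IDs at 100 CPM or more the median was −0.07 and 63.5% were below 0. With plain library totals the members' median was −0.09 and that of all IDs 0.06. By place in the list, folds below 0 were 4 of 10 among ranks 1 to 10, 15 of 20 among ranks 11 to 30 and 10 of 20 among ranks 31 to 50. No member had groups that did not overlap (0 of 50), where 1.28% of all IDs tested had such groups in CPM.

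The member with the smallest unadjusted p was ENSBTAG00000054085, rank 20. It stood at 4046, 1992, 2482, 4175 and 2646 CPM in over-conditioned replicates 1 to 5. In normal-conditioned replicates 1 to 5 it stood at 3840, 4730, 4930, 4139 and 4250 CPM. Over-conditioned replicates 2, 3 and 5 lay far below the normal-conditioned group, and replicates 1 and 4 lay within it. The log2 fold was −0.58 (SE 0.19) and the edgeR adjusted p was 0.529. ALB had the next smallest p among the members with a negative fold.

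**Figure D5:**
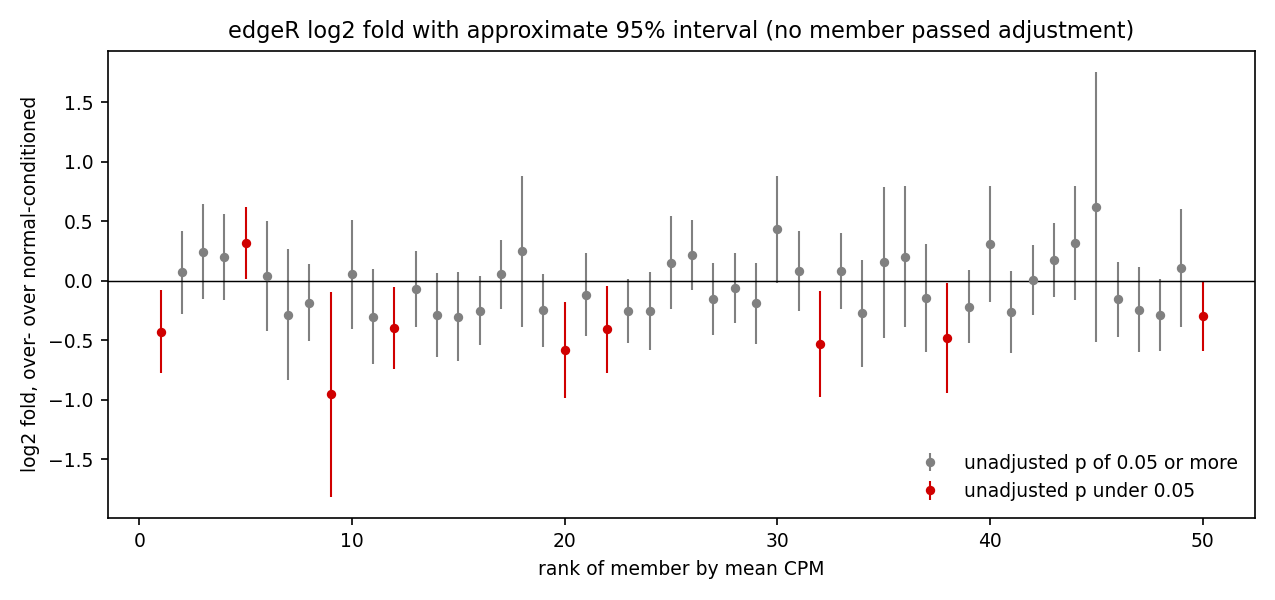
edgeR log2 fold of each member, over-conditioned over normal-conditioned, with its approximate 95% interval, against rank by mean CPM; the 9 members at an unadjusted p under 0.05 are red. Of these 8 lie below 0, and the folds of all members run from −0.96 to 0.62.

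For most members the data bounded the difference. Of the 50 members, 48 had an approximate 95% interval that stayed inside a 2-fold change both ways, where 82.5% of all IDs tested had such an interval. Among the tested IDs at 100 CPM or more, 964 of 1019 had one, so this is shared by abundant IDs. The interval stayed inside a 1.5-fold change for 23 members, or 46%, against 40.2% of all IDs tested and 64.8% of those at 100 CPM or more. The median SE of a log2 fold was 0.16 among members, 0.16 among the IDs at 100 CPM or more and 0.21 among all IDs tested.

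The members whose level most resembled that of ALB across libraries were taken by the highest Pearson r of log2 CPM over the 10 libraries, among 49. They were ENSBTAG00000013718, rank 15 (r = 0.810, Spearman rho = 0.733), ENSBTAG00000015685, rank 32 (r = 0.797, rho = 0.770), and ENSBTAG00000019612, rank 12 (r = 0.790, rho = 0.770). The points share their library totals and the difference between conditions, and picking the highest of 49 leaves no test. Within groups, after removing the group means, r was 0.728, 0.644 and 0.600. Without the 2 libraries farthest from the ALB median, over-conditioned replicate 1 and normal-conditioned replicate 2, r was 0.759, 0.637 and 0.423, so that the last rested largely on those libraries. There ENSBTAG00000008300 (r = 0.876) and ENSBTAG00000005122 (r = 0.856) stood above all of these. Which members were most like ALB thus depended on the libraries used.

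ENSBTAG00000013718 stood at 2801, 3424, 4863, 3860 and 4075 CPM in over-conditioned and at 4994, 4679, 3932, 3981 and 5232 CPM in normal-conditioned replicates 1 to 5. ENSBTAG00000015685 stood at 1559, 2070, 1709, 2578 and 2780 CPM and at 3814, 3391, 2491, 2197 and 3015 CPM. ENSBTAG00000019612 stood at 3173, 4107, 4459, 4792 and 3923 CPM and at 5258, 5876, 5751, 4164 and 4839 CPM. Like ALB, all 3 had their lowest value in over-conditioned replicate 1, as did 13 members in all, the most of any library. The 3 were picked by their r with ALB, so a shared lowest library follows in part from the choice. Over all 49, r with ALB was above 0 in 28 members and below 0 in 21, with a median of 0.218.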

How the data were processed

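Liver RNA was profiled by 3′ mRNA sequencing (QuantSeq forward kit, single reads of 75 bases), per the labels. Tools listed in the submitters' processing notes, without their role, are STAR 2.6.0c, RSEM 1.3.1 and cutadapt 1.18, with ARS-UCD1.2 and bosTau9 as builds. The table the authors deposited holds unnormalised, whole-number counts for each Ensembl ID. The handling of reads that match several genes is not stated in those sources.

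The filterByExpr step of edgeR 4.0.16 (at least 10 counts, total of at least 15) kept all 50 members and 9162 of the 15973 IDs with any count. TMM scaling and edgeR's quasi-likelihood test followed, checked on simulated data, with p-values adjusted over all tested IDs (Benjamini-Hochberg). The SE is the fold over the root of its F value. CPM values use plain totals. Alternatives used DESeq2 1.42.0 and limma 3.58.1 in R 4.3.3, and exact permutation used SciPy 1.17.1.

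The members, the rule for named genes and the tests were chosen with earlier results of these data known. Named are the first 10 members, the 5 widest and 5 narrowest by highest over lowest library, the 3 most like ALB, and up to 2 members in each direction by smallest unadjusted p under 0.05. The rule allowed 5 in each direction; IDs without a symbol were held to 2. Lists of gene roles and cell type markers could not be used, since no ID matched a symbol.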

Additional observations from a re-analysis of the deposited data

Results flagged for a closer look

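Among 52 groups of 5 values, 2 held a library far from its group. For independent and unselected groups chance alone gives about 1 in 20, or 2.6. These groups share the same 10 libraries, and ENSBTAG00000001271 was named for its narrow range, so 2.6 is only a rough guide. ENSBTAG00000000442 stood at 16449 CPM in over-conditioned replicate 1, against 7080 to 9210 CPM in the other over-conditioned libraries. ENSBTAG00000001271 stood at 2305 CPM in over-conditioned replicate 4, against 2765 to 2948 CPM in the others.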

How the results depend on the processing

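No member was called under any of 18 alternatives. Over all IDs the count was 0 in edgeR, 21 with DESeq2, and 0 to 1 without single libraries, the 1 appearing without normal-conditioned replicate 1; the cause was not tested. The number of members at an unadjusted p under 0.05 was 9, and ran from 3 to 11 without single libraries. With the replicate block it was 2, and 0 IDs were called. The labels do not say that the numbers pair the samples: the correlation of deviations from the group means between libraries of 1 number was −0.204 to −0.00804, and 0 of 10 libraries matched their own number best. The ALB difference ran from −2.66 to −1.67 percentage points without single libraries, with exact permutation p of 0.0159 to 0.0476. In the libraries with 7 in their names it was −2.43 (exact permutation p = 0.107), where fewer samples enter. The difference in the members' share ran from −2.79 to −1.62 percentage points over its alternatives. Membership moved little, with 47 to 50 members kept. Every member has at least 1737 counts in each library, so that counting error is at most 2.40% of a value.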

Other observations

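These values were chosen after the data were seen. The ID that the rule removed, ENSBTAG00000006354, ran from 13.7 to 4948 CPM over the 10 libraries, and its log2 CPM was set beside that of the 50 members. It averaged 0.138% of counts, below the 0.202% of the member of rank 50, so leaving it out changed no membership. The members most like it were ENSBTAG00000006745, rank 4 (Pearson r = 0.910, Spearman rho = 0.964), ENSBTAG00000012164, rank 40 (r = 0.903, rho = 0.842), and ENSBTAG00000022394, rank 45 (r = 0.869, rho = 0.867). Within groups r was 0.876, 0.891 and 0.849. Without the 2 farthest libraries it was 0.936, 0.810 and 0.822.

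ALB had the most negative Pearson r of the 50, −0.849 (rho = −0.794), with −0.746 within groups and −0.670 without the 2 farthest libraries. By the other measures ALB was not the extreme. ENSBTAG00000010991, rank 11, stood lower by rho (−0.903), without the 2 farthest libraries (−0.836) and with TMM scaling (−0.811, against −0.762 for ALB). Within groups ENSBTAG00000016151, rank 8, was at −0.747. In all, 3 members had a Pearson r over the 10 libraries above 0.7 and 7 had one below −0.7. These are the extremes of 50 values over 10 libraries that share their totals, so no test is given. ENSBTAG00000012164 stood at 2882, 1872, 3304, 2006 and 2512 CPM in over-conditioned and at 1632, 1171, 2519, 2690 and 1914 CPM in normal-conditioned replicates 1 to 5.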
